A study of Sus scrofa with 12 samples.

Results

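The uterus of gilts (young female pigs) nursed for 48 h was compared with the uterus at birth. The comparison took in every gene whose normalized value lay above 1, the lowest value of the deposited table, in at least 4 of the 8 libraries concerned. This kept 16574 of the 20390 protein-coding genes listed, and 14985 of them were above 1 in all 8 libraries. Of the genes kept, 5 were above 1 in no newborn library and 26 in no nursed library. Just inside the rule stood 299 genes above 1 in exactly 4 libraries (median of their mean values 1.96), and just outside it 306 genes above 1 in exactly 3 (median 1.54).

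Whole uterine tissue was sequenced as messenger RNA, 1 library per animal and 4 animals per group. PND0 gilts were killed within 1 h of birth and had not nursed. PND2N gilts nursed at will and were killed at 50 h of age. Another group of that age, PND2R, received commercial milk replacer in place of the sow's milk, and it enters here through the shared estimate of spread and as a reference level. All animals were crosses of Landrace, Yorkshire, Duroc and Hampshire stock, and no transgene, deletion or drug was involved. Neither litter nor day of collection is on record in the labels, so the animals of a group may or may not share a dam, and age and nursing cannot be told apart between PND0 and PND2N. The tissue was not sorted, so fewer cells of a type and less RNA per cell cannot be told apart either.

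As background, the pig uterus is unfinished at birth. A simple epithelium lines a stroma without glands, oestrogen receptor alpha appears in the first days of life, glands then bud from the lining, and the smooth muscle layers take shape. Colostrum, the first milk, carries growth factors and hormones such as relaxin, and birth itself ends the placental supply of glucose and the high cortisol of labour. From then on a nursed piglet lives on a diet rich in fat.

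The markers of the tissue were present in each of the 8 libraries. HOXA11, a homeobox gene of the uterine tract, stood between 3827 and 8542 in the 8 libraries. The epithelial adhesion protein EPCAM stood between 59.9 and 619, and the enteric smooth muscle actin ACTG2 between 1919 and 9052. The adipokine ADIPOQ and the gonadal receptor FSHR stood at 1 in all 8. Libraries stood apart within both groups. PND2N 1 held the most DES, the intermediate filament protein of muscle (40049, against 7460.1 to 23439.7 in the other nursed gilts), and summed smooth muscle markers of 576094 against 239327 to 382738. The same library held the least VWF, the clotting factor of endothelium (24.2, against 810.4 to 1733). At birth, the 17 epithelial markers summed to 157351 and 159065 in PND0 1 and PND0 2 but to 45002 and 36204 in PND0 3 and PND0 4, whereas the nursed gilts ran from 75251 to 125694. Among replacer-fed gilts, PND2R 2 and PND2R 3 were the richest in DES (33144 and 29022). Counts of the gene lists are therefore also given without PND2N 1, PND2R 2 and PND2R 3 (the 3 DES-rich libraries) or without PND0 3 and PND0 4, wherever fewer genes of a list then passed. Library totals ran from 26534074 to 29544130 normalized units. The read depth behind them is unknown, and a gene at 1 was not detectable rather than shown to be absent.

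At an adjusted p of at most 0.05 in limma (Benjamini-Hochberg over all 16574 genes), 551 genes differed between nursed and newborn uterus, 3.32% of those tested. Of these, 323 were higher in the nursed gilts (1.95%, called rises here) and 228 were lower (1.38%, called falls). The words "with nursing" below name the nursed group, in which nursing and age cannot be told apart. Against replacer-fed gilts of the same age, 2 genes passed (0.0121%), given below. The rises were the smaller changes, with a median of 1.94-fold against 2.85-fold for the falls, and 142 rises and 175 falls reached 2-fold. Over all genes tested, 47.6% of the changes were positive, called or not. The 4 nursed and 4 newborn values did not overlap for 2701 genes (16.3%), among them 548 of the 551. The number of calls rested heavily on which libraries entered the fit. With only the 8 libraries compared in the fit, which leaves fewer degrees of freedom, 7 genes passed, and leaving out any 1 of the 12 libraries gave between 26 (without PND2N 4) and 660 (without PND2N 3). Apart from 6 entries described next, every call named below was lost in at least 1 of the 25 alternative fits, while no named gene that passed changed direction in any of them.

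**Figure D1:**
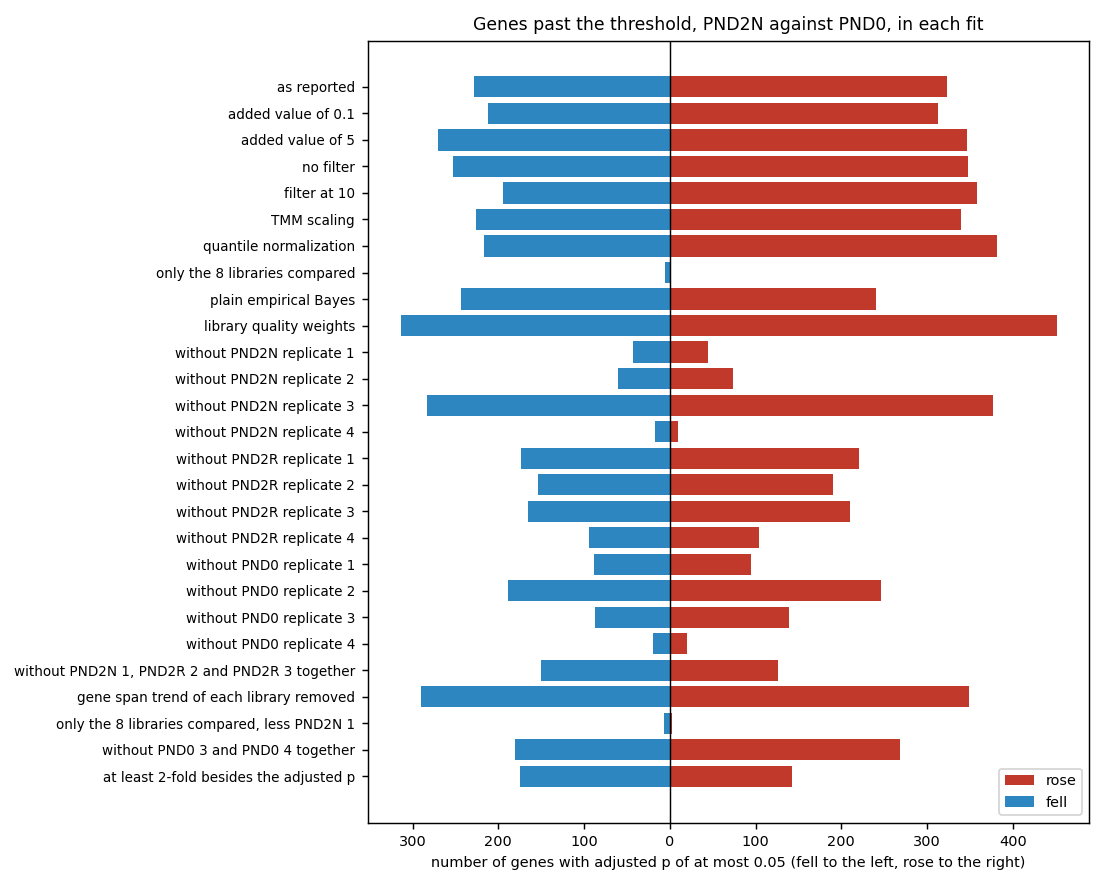
Number of genes past an adjusted p of 0.05 in each fit of PND2N against PND0; bars to the right count genes that rose and bars to the left genes that fell. The reported fit has 323 and 228, and the fit of the 8 libraries alone has 1 and 6.

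Across all 26 fits, 6 entries stayed past the threshold, a set read off after the fits were run. MMP7 (matrilysin, a protease that epithelial cells secrete to trim matrix and shed surface proteins; chromosome 9, 38104906 to 38115301, Sscrofa10.2) stood at 11.2, 41.0, 51.4 and 11.8 in the newborn gilts and at 393, 499, 491 and 866 in the nursed ones. Every nursed value was thus above every newborn value, and the log2 change was 4.48 ± 0.49 (SE; adjusted p = 0.00423, n = 4 per group). Replacer-fed gilts lay between both groups, with 162, 189, 141 and 247, and the difference of nursed from replacer-fed did not pass (log2 1.57 ± 0.49, adjusted p = 1.00).

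ADD2, the beta subunit of adducin, which caps actin filaments and ties them to spectrin under the membrane (chromosome 3, 74920873 to 74974805), was high at birth and low by day 2. Its newborn values were 864, 1308, 955 and 1315 and its nursed values 331, 199, 195 and 277, a log2 change of -2.15 ± 0.25 (adjusted p = 0.00423). PPP1R3G, which brings protein phosphatase 1 to glycogen (chromosome 7, 1863400 to 1864583), stood at 42.2, 23.1, 34.8 and 48.5 at birth. In nursed gilts it was at the bottom of the table, 1.00 in 3 libraries and 1.18 in PND2N 3, while replacer-fed gilts had 5.43 ± 5.40 (SD).

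The GREB1-like entry LOC100525395 (chromosome 3, 132270292 to 132281329) fell from 49.4, 76.7, 72.7 and 197 to 6.05, 1.86, 3.53 and 5.02. GREB1, a cofactor and classical target of oestrogen receptor, is annotated next to it and went the same way, from 23.7, 14.7, 22.9 and 77.5 to 1.00, 2.83, 3.53 and 1.00. The log2 changes were -4.17 ± 0.46 (adjusted p = 0.00423) and -3.34 ± 0.49 (adjusted p = 0.0115). Their neighbouring positions mean that they may be parts of 1 gene, so they are not counted as independent results.

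**Figure D2:**
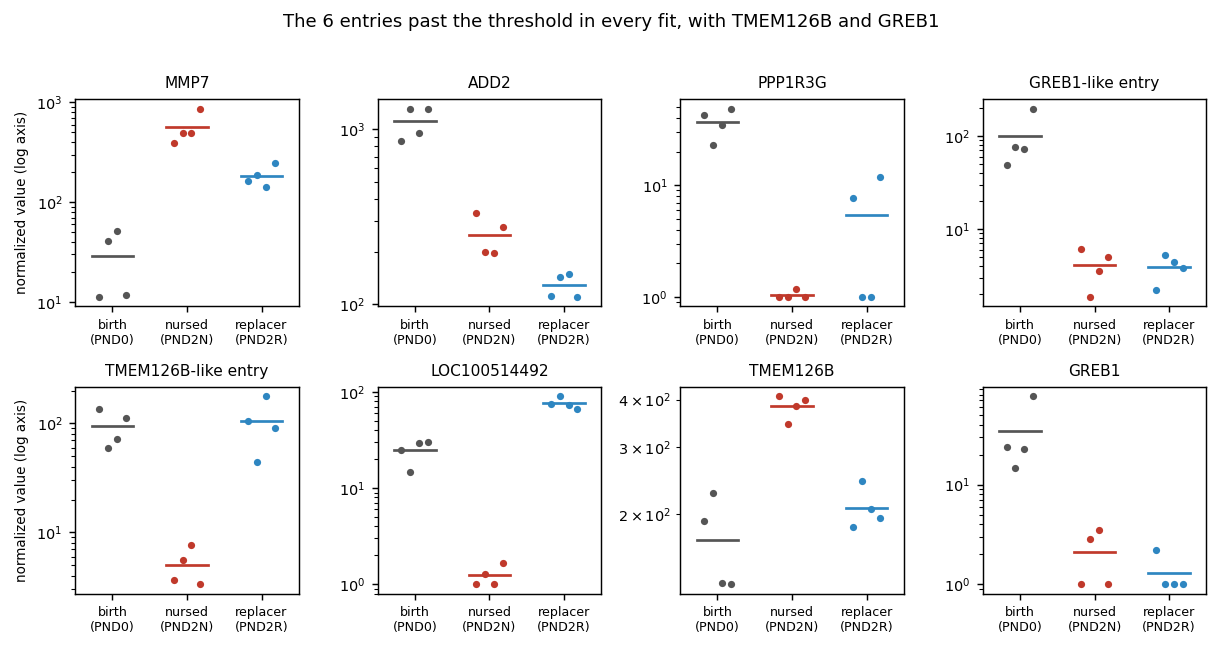
Normalized value per animal (points, log axis) and group mean (line) of the 6 entries past the threshold in all 26 fits, with TMEM126B and GREB1 beside their like-named entries. MMP7 is the sole riser of the 6, and the TMEM126B-like entry and LOC100514492 are low in the nursed gilts alone.

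The remaining pair of steady entries set the nursed gilts apart from both other groups. LOC100518566, a TMEM126B-like entry (chromosome 9, 22290442 to 22297782), stood at 134, 59.2, 71.9 and 113 at birth and at 106, 44.6, 179 and 91.5 under replacer. In nursed gilts it stood at 3.63, 5.59, 7.65 and 3.35, a log2 change from birth of -3.96 ± 0.45 (adjusted p = 0.00423). TMEM126B itself, an assembly factor of respiratory complex I, went the other way. It rose from 192, 227, 131 and 131 to 409, 345, 384 and 399.8 (log2 1.21 ± 0.24, adjusted p = 0.0266), with 184 to 243 under replacer. Both entries bear the name of 1 gene, and reads of near-identical copies can be split between them, so neither value is certain. LOC100514492, an entry with no known product (chromosome 13, 65432520 to 65460967), stood at 24.9, 14.8, 29.3 and 30.5 at birth, at 76.0, 91.2, 73.5 and 67.1 under replacer, and at 1.00, 1.27, 1.00 and 1.67 with nursing. These were the 2 entries, 0.0121% of those tested, that differed between nursed and replacer-fed gilts, by log2 -4.03 ± 0.45 (adjusted p = 0.00978) and -5.13 ± 0.32 (adjusted p = 2.15e-05). At an unadjusted p under 0.05, 440 genes differed between these groups.

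When each of the 12 libraries was left out in turn, 23 entries kept their call every time, 9 that rose and 14 that fell. Besides the 6 above, and chosen like them after the fits were run, they include genes of several roles. Rising ones were the cell-cycle genes CKS2, CDCA3 and CDKN2C, the prenylcysteine oxidase PCYOX1 and the fatty acid carrier enzyme CPT1A. PCYOX1, which breaks down prenylated cysteines, rose from 1520.2, 1605, 1867 and 1408 to 3826, 3429, 3012 and 3985 (log2 1.15 ± 0.15, adjusted p = 0.00866). Falling ones were the clock gene PER1, the stress-induced transcription factor MAFF, the homeobox gene LHX4, the alpha-catenin CTNNA3 and an IGF1R-like entry. MAFF, a small Maf protein, fell from 847, 1906, 1609 and 1396 to 514, 314, 211 and 367 (log2 -2.04 ± 0.30, adjusted p = 0.0115). LHX4 was at 35.1, 12.9, 11.1 and 34.9 at birth and at 1.00, 1.00, 1.18 and 1.67 with nursing, so that it was at or near the lowest value in all 4 nursed gilts. AK4, a mitochondrial adenylate kinase, is listed under 2 entries that did not move alike. The entry with the lower values fell from 98.1, 68.5, 80.4 and 126 to 12.2, 9.31, 20.6 and 15.8 (adjusted p = 0.0115), whereas the other stood at 1444 ± 517 and 1192 ± 198 (SD, adjusted p = 0.566).

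Among the 15 named genes with the largest rises were secreted, signalling and contact proteins. RNASE10, a member of the ribonuclease A family, went from 6.42, 9.91, 8.35 and 1.61 to 57.0, 40.9, 34.6 and 42.8 (log2 2.73 ± 0.47, adjusted p = 0.0201). EFHD1, a calcium-binding protein of the inner mitochondrial membrane, rose from 158, 239, 63.8 and 44.7 to 444, 388, 449 and 782. COL17A1, the collagen of epithelial hemidesmosomes, rose from 276, 521, 125 and 112 to 603, 801, 968 and 891 (log2 1.92 ± 0.47, adjusted p = 0.0496). For EFHD1 and COL17A1 the newborn values split as the epithelial markers did, high in PND0 1 and PND0 2, and the part of that split in the rise was not tested. CPXM2, a carboxypeptidase-like secreted protein, rose from 324 ± 90.5 to 1250.2 ± 465, and PLEKHB1, a membrane-bound signalling adaptor, from 56.2 ± 58.1 to 274 ± 88.2. The PLEKHB1 rise was 6.42-fold and became 9.74-fold without PND0 4, the newborn library with the highest value (142). PMEL, the fibril protein of pigment granules, rose from 1.00, 7.34, 7.24 and 7.33 to 36.1, 17.2, 17.8 and 20.8.

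The largest falls among named genes took in transcription regulators and signalling proteins. ZBTB16, a zinc finger repressor that glucocorticoids and progestins induce, stood at 646, 500.2, 824 and 1176 at birth and at 2.42, 54.0, 94.1 and 97.8 with nursing. Its 20.5-fold fall (adjusted p = 0.049) became 9.33-fold and lost its call (adjusted p = 0.0825) without PND2N 1, the lowest library. ZBTB21, another zinc finger repressor, fell from 45.9 ± 20.1 to 5.29 ± 3.53, and HIPK2, a nuclear kinase of the stress response, from 356 ± 109 to 65.9 ± 31.8. PCDH8, an activity-regulated protocadherin, fell from 139, 61.2, 152 and 308 to 48.4, 20.5, 23.5 and 18.4 (log2 -2.42 ± 0.49, adjusted p = 0.0278). STRA8, the retinoic acid response gene of germ cells, fell from 18.3, 16.6, 63.0 and 23.0 to 2.42, 6.45, 6.87 and 1.92. Of 8 entries past the threshold that sat at 1 in all 4 nursed libraries, 3 carry a symbol. PKD2L1, a polycystin channel, stood at 3.77, 5.65, 14.9 and 17.4 at birth, ALK, a receptor tyrosine kinase, at 2.45 to 4.69, and CACNG2, an AMPA receptor auxiliary subunit, at 3.29 to 4.90. No entry past the threshold sat at 1 in all 4 newborn libraries.

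Among genes with a mean of at least 1000, the largest rises were those of IL17F, given below, CPXM2 and ANGPTL4. ANGPTL4, an inhibitor of lipoprotein lipase that fatty acids and fasting induce, rose from 764, 613, 553 and 587 to 2509.7, 2158, 1329.7 and 3624 (log2 1.85 ± 0.33, adjusted p = 0.0216). Every nursed value exceeded every replacer value (442, 1014, 1066 and 597) too, but that difference did not pass (log2 1.63 ± 0.33, adjusted p = 0.709). CKS2, a small subunit that binds cyclin-dependent kinases, rose from 836, 1058, 912 and 732 to 3127, 1898, 2439 and 2511 (log2 1.48 ± 0.18, adjusted p = 0.0045). ASF1B, a histone chaperone of replicating cells, rose from 645 ± 117 to 1552 ± 354, and ARPC3, a subunit of the actin-branching Arp2/3 complex, from 1406 ± 419 to 3817 ± 1037. CAMK2N1, an inhibitor of calcium/calmodulin kinase II, rose from 705 ± 114 to 2225 ± 1169, the wide spread coming from 3927 in PND2N 1. GIMAP4, a GTPase of lymphocytes, rose from 671, 926, 313 and 327 to 1075, 1644, 1589 and 1465.

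The abundant falls included transporters and regulators. SLC16A3, the exporter of lactate, fell from 1070.3, 2381, 915 and 811 to 545, 260.0, 339 and 355 (log2 -1.70 ± 0.33, adjusted p = 0.0266). SLC25A37, which brings iron into mitochondria, fell from 1397, 1301, 3341 and 3284 to 948, 752, 731 and 761. TSHZ2 and KLF7, zinc finger transcription factors, fell from 2335 ± 815 to 808 ± 219.6 and from 1654 ± 879.5 to 543 ± 159.7. The KLF7 entry spans 0.64 kb, and so short a span leaves its identity uncertain. USP36, a nucleolar deubiquitinase, went from 1792, 1683, 1658 and 1934 to 487, 830.5, 984 and 626. For SLC25A37, TSHZ2 and KLF7 the newborn values were highest in PND0 3 and PND0 4, yet those of PND0 1 and PND0 2 were also above all nursed values.

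Messages of an oestrogen receptor and of its classical target GREB1 moved in opposite directions. Receptor activity was not measured. ESR1, the oestrogen receptor alpha (chromosome 1, 15697511 to 15889475), rose from 1035, 1574, 3184 and 3033 to 4962, 7785, 5520.2 and 4286 (log2 1.46 ± 0.33, adjusted p = 0.0397). The lowest nursed gilt was above the highest newborn, and replacer-fed gilts ran from 3910.0 to 5978. A second, 0.453 kb entry of the same name stood at 102 ± 32.6 and 123 ± 32.1 (adjusted p = 0.596). The fall of GREB1 is given above. PGR, the progesterone receptor, was at 299, 408, 278 and 256 at birth and at 14.1, 139, 188 and 75.3 with nursing, which did not pass (log2 -2.04 ± 0.68, adjusted p = 0.104) although the groups did not overlap. DIO2, the deiodinase that activates thyroid hormone, stood at 84.9 ± 15.1 and 213 ± 90.4 (adjusted p = 0.0876). Of 24 measured genes of steroid and thyroid hormone action, 1 rose and 1 fell, and 8 had a positive change (median log2 change -0.21, against -0.03 over all genes tested). The shares over all genes tested, for this list and those below, are 3.32% past the threshold and 47.6% positive. Whether a list departs from them was not tested. Some genes belong to more than 1 list, so the counts of the lists are not independent. Without the 3 DES-rich libraries none rose and 1 fell, ESR1 missing the threshold (adjusted p = 0.0654).

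Receptors for hormones of milk and the pituitary did not pass in either direction, 0 of 12 measured. The relaxin receptor RXFP1 stood at 632, 1425, 859 and 1075 at birth and at 1678, 1799, 934 and 1812 with nursing (adjusted p = 0.17), and the groups overlapped. The prolactin receptor PRLR stood at 1153 ± 521 and 1089.8 ± 202 (log2 0.02 ± 0.32, adjusted p = 0.98).

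Of 25 measured genes that glucocorticoids induce, 4 fell from birth to the nursed group and 1 rose, and 4 changes were positive (median -0.37). Those that fell were ZBTB16, PER1, KLF9 and HIF3A, and the riser was ANGPTL4. PER1, a repressor of the circadian clock that glucocorticoids also switch on, fell from 294, 301, 407 and 469.6 to 64.9, 50.3, 91.2 and 95.3 (log2 -2.29 ± 0.29, adjusted p = 0.00696). No nursed value came near the lowest newborn one. KLF9, a zinc finger factor, fell from 8.15, 4.90, 12.9 and 6.87 to 1.00, 1.00, 3.53 and 1.40 (adjusted p = 0.0276), levels near the bottom of the table. FKBP5, a chaperone that restrains the glucocorticoid receptor, overlapped between the groups, with 335, 234, 298 and 524 against 14.5, 169, 286 and 96.9 (adjusted p = 0.304). The receptor NR3C1 stood at 4132 ± 201 and 3078 ± 989.9 (adjusted p = 0.228). Without the 3 DES-rich libraries 3 of the 25 genes fell and 1 rose, and without PND0 3 and PND0 4 1 fell and none rose. Of 14 clock genes, PER1 was the single one past the threshold, 4 changes were positive (median -0.30), and DBP, an output gene of the clock, stood at 717 ± 92.8 and 1522 ± 589.8 (adjusted p = 0.109). The labels give no hour of the day at which uteri were taken.

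Immediate early genes, which cells switch on within minutes of a stimulus, had a median of -0.58, with 4 of 22 changes positive. ZFP36L1, which binds AU-rich messages and hastens their decay, was the 1 that fell, from values of 531 to 875 at birth to 218, 332, 436 and 391 (log2 -1.19 ± 0.27, adjusted p = 0.0373). FOS, a subunit of the AP-1 factor, was at 633 ± 229.9 and 288 ± 103 (adjusted p = 0.0871), and JUN, its partner, at 14442 ± 4496 and 6975 ± 4078 (adjusted p = 0.0687).

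In the insulin and insulin-like growth factor system, a pair of receptors and the adaptor IRS1 fell. Of 24 genes, 3 fell and none rose, and 8 changes were positive (median -0.28). IGF1R, the receptor that drives growth, fell from 3327, 2419, 2597 and 3524 to 1184, 1486, 1516 and 1499 (log2 -1.05 ± 0.24, adjusted p = 0.0363). An IGF1R-like entry, LOC100623048, fell from 593, 495, 449 and 534 to 165, 151, 178 and 218. It lies close to IGF1R on chromosome 1 (144234268 to 144287191, against 143851692 to 144145063), so it is not counted as an independent result. IGF2R, which clears IGF2 and is imprinted in several mammals, fell from 8759, 8291, 6917 and 8696 to 3411, 5183, 4786 and 4390.1 (adjusted p = 0.0254). IRS1, the adaptor that IGF1R and the insulin receptor phosphorylate, fell from 5117, 3658, 2975 and 3432 to 959.6, 1854, 1743 and 1675 (adjusted p = 0.0328). In all 3 genes the highest nursed gilt lay well under the lowest newborn. The insulin receptor INSR was at 874, 642, 876 and 1083 against 64.3, 294, 348 and 196, and did not pass (log2 -2.17 ± 0.60, adjusted p = 0.0663), nor did the kinase subunit PIK3R1, at 456 ± 84.1 and 151 ± 94.0 (adjusted p = 0.0713). Both were lowest in PND2N 1, which stands apart. Of the 24 genes 4 fell without the 3 DES-rich libraries (median -0.31), INSR among them (adjusted p = 0.0305), and 1 fell without PND0 3 and PND0 4 (median -0.17). In the latter fit IGF2R passed (adjusted p = 0.0468), and IGF1R and IRS1 did not (0.0946 and 0.0557).

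Of 28 genes of the hypoxia response 3 fell, 1 rose and 4 had a positive change (median -0.32). The riser was ANGPTL4, and both it and HIF3A are also in the glucocorticoid list. HIF3A, a hypoxia-inducible factor, fell from 42.7, 42.8, 34.9 and 78.1 to 7.26, 3.72, 5.88 and 17.6. EGLN3, an oxygen-sensing prolyl hydroxylase and itself a target, fell from 781, 822, 897 and 954 to 354, 408, 492 and 364 (log2 -1.10 ± 0.21, adjusted p = 0.0237), with a narrow spread in both groups. VEGFA, the vascular growth factor, fell from 4622, 4225, 4987 and 6399.5 to 3849, 3098, 2534 and 2968 (log2 -0.70 ± 0.16, adjusted p = 0.0417). The collagen prolyl hydroxylase P4HA1 was at 4597 ± 587 and 2685 ± 927 (adjusted p = 0.0506). Without PND0 3 and PND0 4, 2 genes of the list fell and none rose, and HIF3A, EGLN3 and VEGFA were not among them (adjusted p = 0.0961, 0.0656 and 0.112).

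Of 33 genes of glycolysis and glycogen, 1 rose and 2 fell (median -0.08), the falls being SLC16A3 and PPP1R3G. LDHA, the muscle-type lactate dehydrogenase, was at 10444, 14648, 9576 and 7037 against 6063, 5442, 7490.3 and 5274 (adjusted p = 0.0774), with 1 nursed gilt above the lowest newborn. The riser was an LDHB entry spanning 1.28 kb on chromosome 2 (4070.4 ± 364 to 6972 ± 1508). The LDHB entry spanning 23.5 kb on chromosome 5 stood at 1471 ± 329 and 1246 ± 141 (adjusted p = 0.435), so that reads may be shared between copies and LDHB is uncertain. Without PND0 3 and PND0 4, 5 of the 33 fell and none rose.

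Of 40 measured genes of fatty acid oxidation and carnitine 6 rose, ANGPTL4 again among them, none fell and 34 were positive (median 0.35). CPT1A, which commits long-chain fatty acids to the mitochondrion, rose from 4383, 4147, 3069 and 3221 to 6575, 9594, 7635 and 8825 (log2 1.14 ± 0.15, adjusted p = 0.00982). Replacer-fed gilts held 4742 to 4911, all under the lowest nursed value, but the difference between the fed groups did not pass (log2 0.74 ± 0.15, adjusted p = 0.709). SLC25A20, the carnitine carrier of the inner membrane, rose from 1024, 1299, 935 and 951 to 2322, 2174, 1835 and 2508 (log2 1.07 ± 0.16, adjusted p = 0.0116). ACAA2, the thiolase of the last step of the spiral, rose from 2794, 2655, 2529 and 2081 to 3811, 3545, 3844 and 3859, and UCP2, an uncoupling carrier, from 421 ± 119 to 878 ± 161. BBOX1, the final enzyme of carnitine synthesis, rose from 4.60, 1.00, 1.52 and 1.00 to 16.9, 7.45, 15.3 and 15.9. HADHA, a subunit of the trifunctional protein, narrowly missed, at 5973 ± 1053 and 9464 ± 783 (adjusted p = 0.0506). Of this list 4 genes rose (median 0.37) without PND2N 1, PND2R 2 and PND2R 3, and 3 (median 0.34) without PND0 3 and PND0 4.

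**Figure D3:**
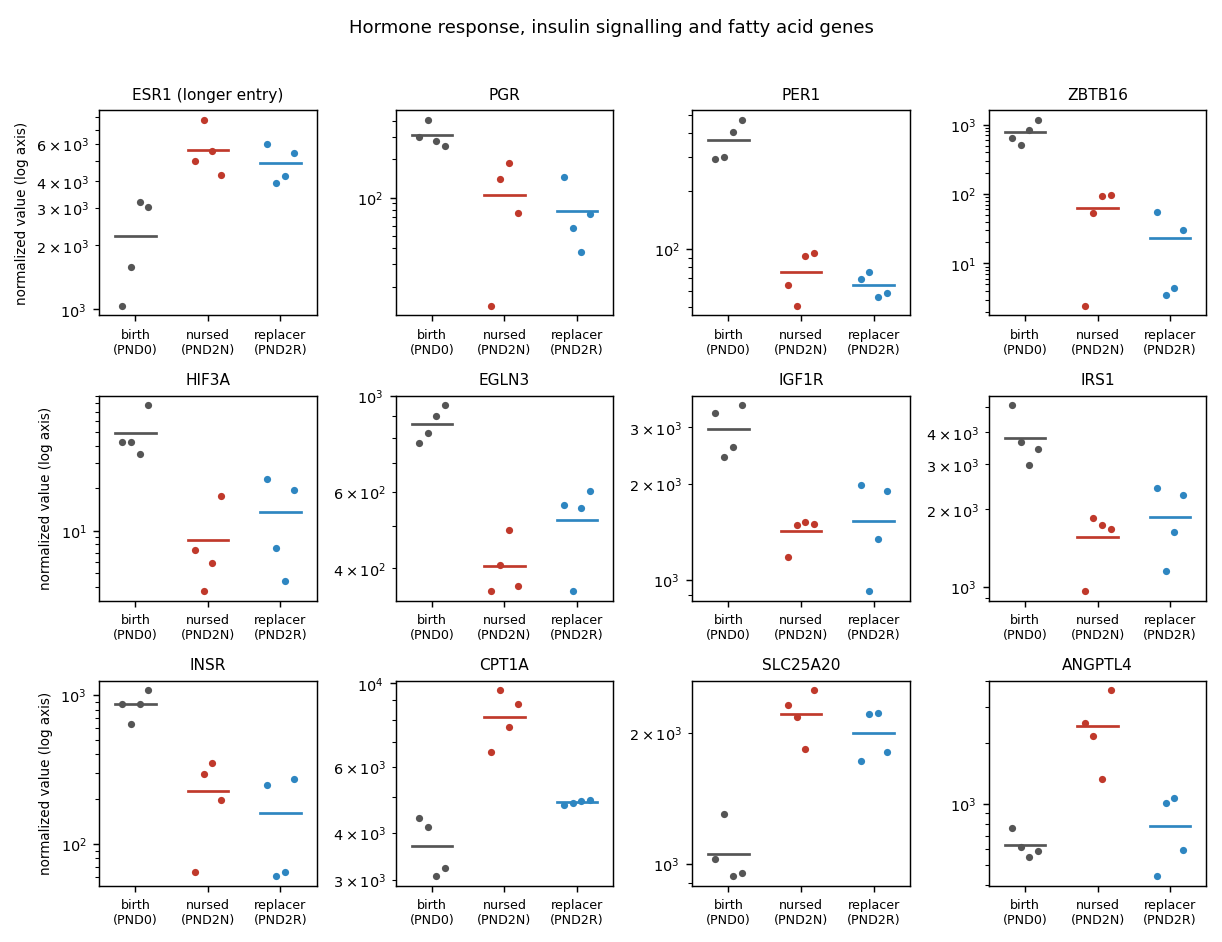
Normalized value per animal (points, log axis) and group mean (line) for 12 genes of hormone response, insulin signalling and fatty acid use. In nursed gilts ESR1, CPT1A, SLC25A20 and ANGPTL4 rose, PER1, ZBTB16, HIF3A, EGLN3, IGF1R and IRS1 fell, and PGR and INSR did not pass the threshold.

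Among 40 genes of the respiratory chain and ATP synthase 5 rose, none fell and 36 were positive (median 0.52), against 47.6% positive over all genes tested. NDUFS4, an assembly-critical subunit of complex I, rose from 440.1, 418, 516 and 394 to 1859, 947, 736 and 1515 (log2 1.43 ± 0.28, adjusted p = 0.027). COX7A2 of complex IV rose from 1273 ± 298 to 3076 ± 1228, and ATP5O of ATP synthase from 4832 ± 1099.6 to 9319 ± 1729.8. The other two were NDUFV2 of complex I (2008 ± 399 to 3489.6 ± 685) and ATP5J of ATP synthase (2749 ± 586 to 5899 ± 2117). Proteins of the mitochondrial ribosome gave 4 rises in 39 and 36 positive changes (median 0.54), among them MRPL30, from 1344, 1448, 1038 and 758 to 2995, 2001, 1992 and 2937 (adjusted p = 0.0299), and MRPL13, from 982 ± 203 to 1915 ± 345, beside MRPL47 and MRPS33. Of 31 proteasome genes 3 rose and 29 were positive (median 0.45), led by the core subunit PSMA5, from 464, 551, 435 and 349 to 1479, 889, 855 and 1108 (log2 1.25 ± 0.22, adjusted p = 0.0211). Its neighbours in the core PSMA2 (2192 ± 306 to 4159.8 ± 1071) and PSMA4 (2996 ± 582 to 4782 ± 338) rose as well. In NDUFS4 and PSMA5 PND2N 1 and PND2N 4 were the higher nursed gilts. None of 19 genes of the citric acid cycle passed, with 11 changes positive (median 0.05), SUCLG1 being at 4126 ± 829.9 and 6836 ± 1629 (adjusted p = 0.068). None of 50 cytosolic ribosomal proteins passed either, with 41 changes positive (median 0.22). The median of these proteins was -0.10 without PND0 3 and PND0 4 and 0.08 without the 3 DES-rich libraries. With 3.32% of all genes called, few calls or none are what lists of this size would hold at the background share, and the difference between lists was not tested. Without PND0 3 and PND0 4 no gene of the respiratory, mitochondrial ribosome or proteasome lists passed, and the medians were 0.23, 0.28 and 0.29. Without the 3 DES-rich libraries 1 respiratory gene, no mitochondrial ribosome gene and 2 proteasome genes rose, with medians of 0.39, 0.43 and 0.35.

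Of 30 genes of mitosis and the kinetochore 10 rose, none fell and 24 were positive (median 0.69). For 15 of them every nursed value was above every newborn value, as was the case for 1373 of all 16574 genes tested. The sum of the 30 genes overlapped, however, at 31989.9 to 51649 at birth and 35447 to 90392 with nursing. PND2N 3 held the highest sum, and those of PND2N 1 (35447), PND2N 2 (51594) and PND2N 4 (42539) were below that of PND0 3 (51649). AURKA, a spindle pole kinase, rose from 407, 419.6, 377 and 375 to 847, 677, 989 and 895 (log2 1.10 ± 0.18, adjusted p = 0.0186), with newborn values close together. PTTG1, the securin that holds back separase, rose from 406, 422, 629 and 454 to 1056, 797, 1118 and 1009.8 (adjusted p = 0.019). SKA2, which couples kinetochores to microtubules with SKA1, rose from 1263 ± 183 to 2203 ± 341, the mitotic cyclin CCNB2 from 673 ± 114 to 1578 ± 521, and the ubiquitin-conjugating enzyme UBE2C from 1679 ± 84.6 to 2738 ± 442. FOXM1, the transcription factor of the G2 programme, reached the threshold narrowly (459 ± 85.7 to 827 ± 159, adjusted p = 0.05). NUF2, an outer kinetochore protein, was highest in PND2N 3 (2741 against 1429 to 1579.7), and the kinase AURKB rose from 849.7 ± 111 to 1462 ± 296. SKA1 rose from 46.0, 94.1, 91.2 and 64.5 to 364, 211, 278 and 301 (log2 1.98 ± 0.29, adjusted p = 0.0115). Of 29 genes of DNA replication and repair 3 rose and 25 were positive (median 0.54), ORC1 of the origin recognition complex among them (504 ± 103 to 993 ± 279). PRIM1, the primase, rose from 317, 435, 686 and 377 to 1125, 747, 884 and 886 (adjusted p = 0.0362), and CDKN2C, an inhibitor of CDK4 and CDK6, from 648, 722, 688 and 628 to 1582, 1199, 1888 and 1415 (log2 1.16 ± 0.17, adjusted p = 0.0115). The mitosis list gave 5 rises without the 3 DES-rich libraries and 7 without PND0 3 and PND0 4, and the replication list 1 and 3.

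Of 34 chemokines, cytokines and acute phase genes 4 rose and 31 were positive (median 0.65). CCL2, which draws monocytes, rose from 40.2, 41.6, 67.8 and 69.7 to 224, 175, 166 and 269 (log2 1.93 ± 0.38, adjusted p = 0.0263), and CXCL14, a chemokine of epithelium and stroma, from 360.4, 297, 486 and 473 to 1838, 1007, 686 and 693. The monocyte attractant CCL8 rose from 13.6, 39.3, 15.8 and 5.38 to 92.6, 94.1, 96.2 and 155, and the cytokine IL17F from 213, 349, 415 and 216 to 2552, 907, 782 and 1424. In complement 4 of 23 genes rose: SERPING1, the inhibitor of C1, from 7207, 7908, 6999.7 and 6997 to 19966, 12942, 10100.1 and 16778 (log2 0.99 ± 0.23, adjusted p = 0.0416), CD59, which blocks the membrane attack complex, from 5191 ± 637 to 7809 ± 281, and the C1q chains C1QB (1657 ± 533 to 3116 ± 386) and C1QC (1443 ± 547 to 3000.0 ± 371). Of 33 interferon response genes IFI30, a lysosomal thiol reductase, rose (1079 ± 225 to 2052 ± 354) and 28 were positive. Antigen presentation had 17 of 19 positive changes (median 0.51) but none past the threshold, with SLA-DQA1 of MHC class II at 476, 342, 1253 and 640.2 against 1489, 1099, 1823 and 1864 (adjusted p = 0.0613).

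The level of macrophage markers moved with these genes. Of 15 measured markers C1QB, C1QC and LAPTM5 rose and 12 were positive (median 0.72), and their sum was 8057 to 12779.6 at birth and 14069 to 17711 with nursing, without overlap. The general leukocyte marker PTPRC was at 361 ± 95.0 and 432 ± 256 (adjusted p = 0.99), and 0 of 13 markers of T and NK cells passed (sums 2010.0 to 2524 and 1781 to 3238). None of 9 neutrophil markers passed (sums 523 to 592 and 457 to 1050.4), though 7 were positive and their median of 0.69 was close to that of the macrophage markers. The part of macrophage number in the complement and chemokine results was not tested. Of the macrophage markers 1 rose without the 3 DES-rich libraries (median 0.58) and none without PND0 3 and PND0 4 (median 0.49). Leaving out the 3 DES-rich libraries gave 4 rises among the chemokines and cytokines, 1 in complement and 2 in the interferon response. Without PND0 3 and PND0 4, 2 chemokine and cytokine genes rose (CCL2 and CCL8, adjusted p = 0.0406 and 0.0489) and no interferon response gene did. In that fit the medians of complement and antigen presentation were 0.01 and 0.02, no complement gene passed, and 2 of the 19 antigen presentation genes rose.

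Of 46 regulators of uterine development none passed (median -0.06), FGF10, a stromal growth factor for budding epithelium, being at 45.7 ± 23.0 and 104 ± 27.7 (adjusted p = 0.0731) and the Wnt antagonist DKK2 at 1404 ± 432 and 854 ± 81.5 (adjusted p = 0.106). FOXA2, the factor of uterine glands, stood at 89.4, 60.0, 1.52 and 22.6 at birth and at 19.4, 20.5, 40.0 and 30.0 with nursing (adjusted p = 0.915). In the hedgehog pathway, by which epithelium signals to stroma, 1 of 15 genes fell, none rose and 2 changes were positive (median -0.57). GLI3, its transcription factor, fell in both of its entries, from 328, 314, 520.1 and 556 to 181, 190.2, 208 and 162 (log2 -1.17 ± 0.24, adjusted p = 0.0303) and from 269.9, 329, 479 and 530.3 to 108, 184, 187 and 99.7 (adjusted p = 0.0362). GLI1, a target of the pathway, was at 248, 191, 794 and 775 against 80.9, 184, 174 and 75.7 (adjusted p = 0.0753), and no gene of this list passed without PND0 3 and PND0 4 (median -0.78) or without the 3 DES-rich libraries (median -0.76). Without PND0 3 and PND0 4, 3 of the 46 regulators of uterine development fell. None of 18 Notch pathway genes passed (median -0.25). Among 15 imprinted and fetal growth genes only IGF2R fell, and NNAT, an imprinted membrane protein, stood at 616 ± 354 and 1666 ± 549.8 (adjusted p = 0.0776), and 1 gene of the list rose without PND0 3 and PND0 4.

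In the matrix, a pair of proteases rose and elastin fell. Of 29 proteases and inhibitors MMP7 and MMP19 rose (median 0.03). MMP19, a stromal metalloproteinase, went from 456, 563, 284 and 313 to 696, 933, 631 and 888 (log2 1.00 ± 0.25, adjusted p = 0.0489). The plasminogen activator PLAT was at 5842 ± 1063 and 9983 ± 1990.4 (adjusted p = 0.0521). ELN, the elastic fibre protein, fell from 9752, 7208, 6163 and 8754 to 3766, 4653, 3839 and 3239 (log2 -1.03 ± 0.18, adjusted p = 0.0211), the 1 call among 33 genes of interstitial collagens and elastic fibres (median -0.16). None of 29 basement membrane and integrin genes passed, with 5 positive (median -0.31). The angiotensin precursor AGT rose from 16.1, 95.2, 56.9 and 23.6 to 283, 315, 125 and 355, the 1 call among 34 genes of prostaglandin, retinoid and angiotensin metabolism (median 0.26). The retinoic acid carrier CRABP1 stood at 6323 ± 839 and 13346 ± 5561 and did not pass (adjusted p = 0.0658). Without PND0 3 and PND0 4, 1 gene of the protease list rose and 1 fell, and 1 basement membrane or integrin gene fell. MMP19 passed neither then (adjusted p = 0.155) nor without the 3 DES-rich libraries (0.0705).

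Among 48 chromatin modifiers 2 fell, 1 rose and 11 changes were positive (median -0.47). The remodeller CHD3 fell from 39831, 32770.3, 32767 and 35570.1 to 21167, 24002, 27528 and 20504 (log2 -0.60 ± 0.13, adjusted p = 0.0362), and its relative CHD6 from 7089 ± 728 to 3993 ± 801. The 1 riser of the list was an EED-like entry of 0.984 kb, at 191 ± 32.8 and 718 ± 426, whose short span leaves its identity uncertain. Of 43 guidance genes PLXNA4 and SEMA4C fell and 10 were positive (median -0.29). SEMA4C, a transmembrane semaphorin, fell from 1209.5, 1272, 1007 and 1399.7 to 380.4, 614, 670.0 and 537 (adjusted p = 0.0362), and PLXNA4, a plexin receptor, from 78.9, 44.1, 58.3 and 67.3 to 1.00, 9.31, 22.0 and 8.36. The fall of PLXNA4 was 7.57-fold and became 4.74-fold, without a call (adjusted p = 0.0637), when PND2N 1 was left out. Of 14 endothelial markers TIE1, a receptor kinase of vessel stability, fell from 1847, 2035, 2729 and 3217 to 726, 1344, 903 and 1074 (log2 -1.28 ± 0.25, adjusted p = 0.0254), and FLT4, the lymphatic receptor of VEGFC, from 1811 ± 448 to 1061 ± 76.3. The sum of the 14 markers overlapped, 16917 to 24857 at birth and 13878 to 19498 with nursing, and VWF did not pass (adjusted p = 0.235). No gene of the chromatin, guidance or endothelial lists passed without PND0 3 and PND0 4. Without the 3 DES-rich libraries 2 chromatin genes, 3 guidance genes and 1 endothelial gene fell, and none rose.

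**Figure D4:**
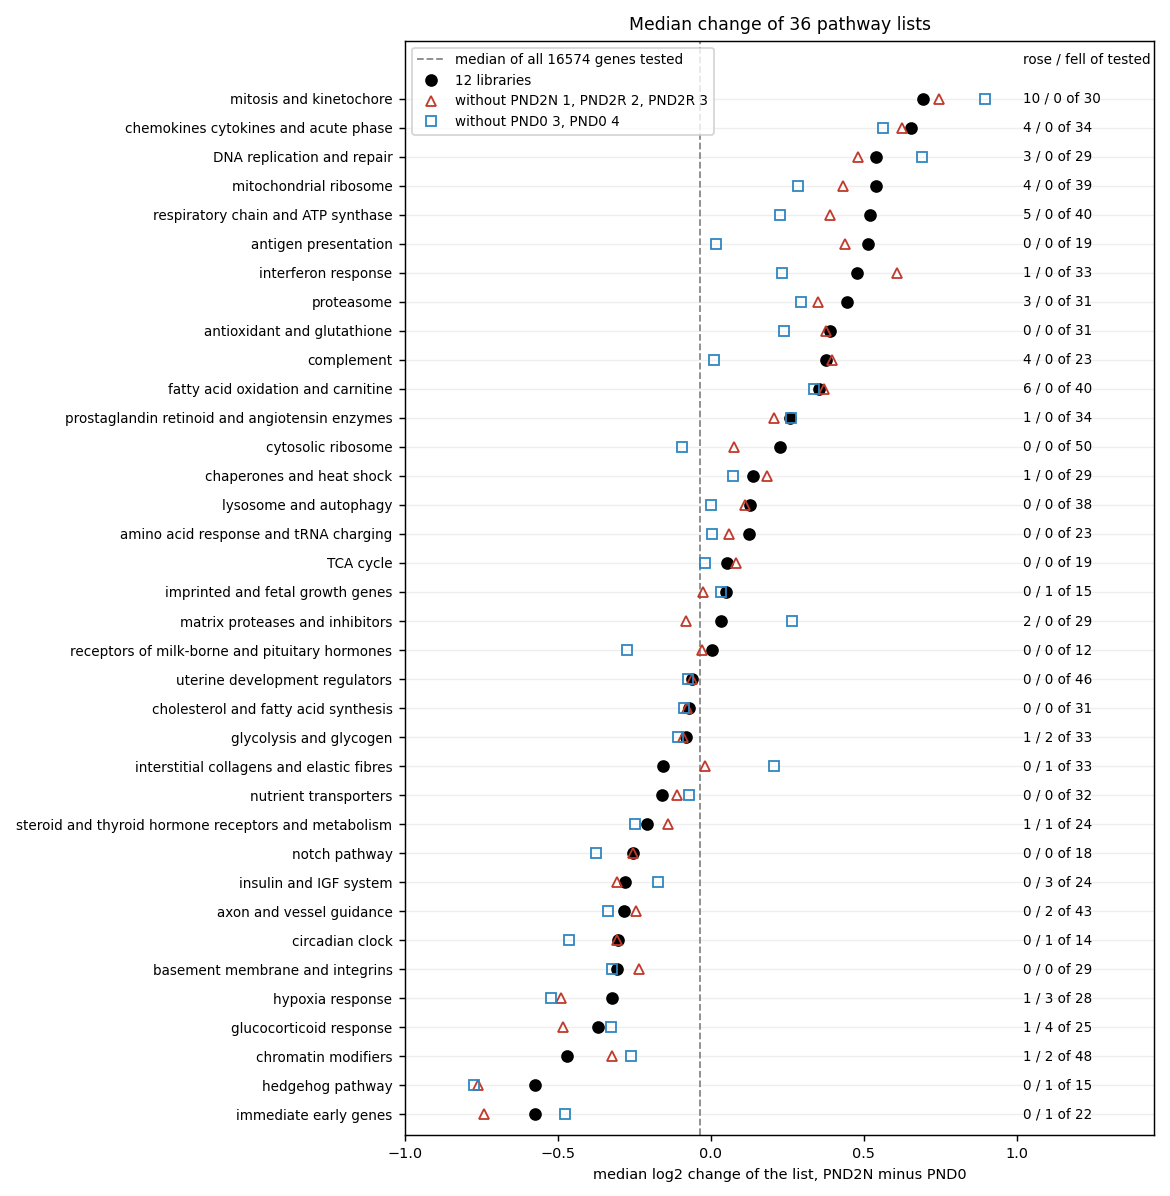
Median log2 change, PND2N minus PND0, of the measured members of 36 pathway lists with all 12 libraries (filled) and without 2 sets of libraries that stand apart (open); the dashed line is the median of all 16574 genes. With all 12 libraries the mitosis, chemokine and replication lists lie highest and the immediate early and hedgehog lists lowest, an order that the open points do not all keep.

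Changes also varied with the genomic span of a gene, which runs from its first to its last base, introns included. Sorted into 5 equal classes by span, the median log2 change went from 0.09 and 0.07 in the classes of shortest span through -0.01 and -0.11 to -0.17 in the longest. Across genes the correlation of log2 span with log2 change was -0.12 (Pearson) and that of span -0.15 (Spearman), given as a description because genes share the same libraries. The steepest trends were those of 3 libraries. PND2N 1 deviated by 0.33 in the shortest class and by -0.36 in the longest, while PND0 3 and PND0 4 went from -0.12 and -0.13 to 0.25 and 0.21. Genes that rose and fell had similar spans (medians 14.6 and 14.3 kb, against 18.3 kb over all genes tested). When the trend of each library was subtracted, 639 genes passed, 458 of them among the 551. The medians became 0.40 for the respiratory list, 0.37 for the mitochondrial ribosome, 0.30 for the proteasome and -0.47 for chromatin modifiers, which thus kept their sign. Other lists did not all do so. Those of the citric acid cycle and of matrix proteases and inhibitors turned to -0.02 and -0.06. The medians of complement and the cytosolic ribosome shrank from 0.38 to 0.19 and from 0.22 to 0.05. Sorted likewise by level, from the lowest class to the highest, the median log2 change was -0.34, -0.29, 0.02, 0.12 and 0.06. The lowest class (mean value up to 39.7) held 14 rises and 74 falls, and class 4 of 5 held 120 rises and 35 falls. Genes of the table at 1 made up 18.7 to 22.1% in nursed libraries and 17.8 to 19.3% in newborn ones. The part of these trends in the falls of genes at low level was not tested.

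**Figure D5:**
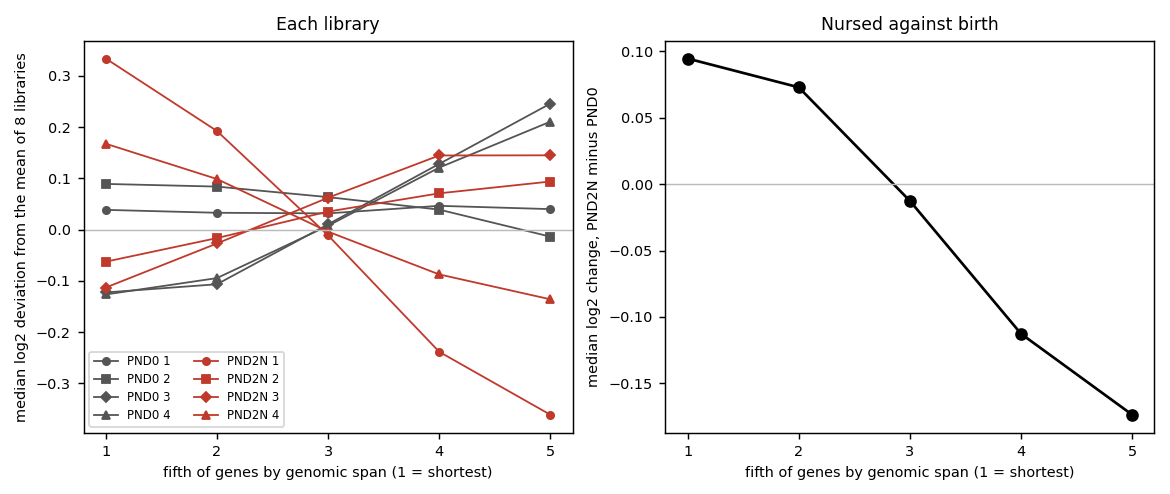
Left, median log2 deviation of each library from the mean of the 8 libraries, by class of genomic span; right, median log2 change, PND2N minus PND0, by the same 5 classes. PND2N 1 has the steepest line, and the median change goes from 0.09 in the shortest class to -0.17 in the longest.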

How the data were processed

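The deposited table gives 1 normalized signal value per gene and library, made by the authors per the file headers and never below 1. The submitters' processing notes name bcl2fastq and the genome build Sscrofa10.2. Which aligner, counter and scaling the authors chose is not given in the sources used here. Names of entries with a placeholder symbol were taken by gene ID from RefSeq (6403 entries). Values were analysed as log2(value + 1) with limma 3.58.1 in R 4.3.3 (trended, robust empirical Bayes, all 12 libraries, two-sided), adjusted by Benjamini-Hochberg over 16574 genes, threshold 0.05. The procedure was tested on simulated data. The libraries are labelled as separate gilts. Whole reads could not be recovered, so no count model was run.

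Genes were drawn by rule: the 15 largest rises and falls with non-overlapping groups, the same among genes with a mean of at least 1000, genes at 1 throughout a group, members of each list past the threshold or with the lowest p, and defining markers. Not every gene that met the rule is named, so the descriptions of the largest changes cover a part of them. LOC entries, TMEM126B, PCYOX1, CDCA3, CTNNA3 and HOXA11 fall outside this rule, and their values were known when they were picked. The members and lists were chosen with earlier results of these data known. Alternatives were other added values, filters, scalings, spread estimates and sets of libraries.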

Additional observations from a re-analysis of the deposited data

Results flagged for a closer look

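Of 268 groups of 4 animals examined among the named genes, 19 held 1 animal far from the other three by Dixon's test, a result that chance gives in about 1 group of 20. Among nursed gilts, PND2N 1 stood apart for IGF1R (1184), SLC25A37 (948) and CRABP1 (21643), and PND2N 2 for ACAA2 (3545). PND2N 3 stood apart for NUF2 (2741), RXFP1 (934) and KLF9 (3.53), and by a value just over the lowest of the table for PPP1R3G (1.18) and CTNNA3 (1.18). PND2N 4 was the highest nursed gilt for EFHD1 (782) and CCL8 (155). Among newborn gilts, PND0 1 stood apart for BBOX1 (4.60), PMEL (1.00) and AURKB (684), and PND0 2 for SLC16A3 (2381). PND0 3 stood apart for ZFP36L1 (531) and STRA8 (63.0), and PND0 4 for GREB1 (77.5) and VWF (3194).

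The difference from the replacer-fed gilts passed the test for both LOC100518566 (log2 -4.03, adjusted p = 0.00978 in limma) and LOC100514492 (log2 -5.13, adjusted p = 2.15e-05), each lower in all 4 nursed gilts than in any of the 4 replacer-fed ones.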

How the results depend on the processing

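Against 551 genes past the threshold (323 rose, 228 fell), the 8 libraries alone gave 7 (1 and 6), and the same without PND2N 1 gave 9 (2 and 7). Leaving out PND2N 1, PND2R 2 and PND2R 3 together gave 276 (126 and 150), and asking for a 2-fold change as well gave 317 (142 and 175). Without any 1 of the 12 libraries the count ran from 26 to 660, the rises from 9 to 377 and the falls from 17 to 283. It moved by over 1.5 times without PND2N 1 (88), PND2N 2 (134), PND2N 4 (26), PND2R 2 (344), PND2R 4 (198), PND0 1 (183), PND0 3 (226) or PND0 4 (40). Fits on fewer libraries have fewer degrees of freedom, and beyond that the cause was not tested. Other added values, filters, scalings and spread estimates gave counts within 1.5 times. None of the named genes that passed reversed in any fit. Leaving out PND0 3 and PND0 4 together (449 genes), the removal of the span trend and the 8 libraries less PND2N 1 were tried after seeing the data. No paired analysis was possible because the replicate numbers follow accession order and the labels pair no animals. Read depth is unknown, which limits genes near 1.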
